A study of Mus musculus with 11 samples.

Results

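A set of 9 genes that move, bind, make, break down or sense retinoids was followed in naive extra-embryonic endoderm (nEnd) of the mouse, which are stem cells grown as a model of blastocyst primitive endoderm. They were taken by symbol, as Crabp1, Crabp2, Stra6, Rarb, Rarg, Dhrs3, Cyp26a1, Aldh1a2 and Aldh1a3, from the 48952 genes of the bulk table, and each of the 9 also had at least 1 UMI in both single-cell libraries. The rule lists them by symbol without an expression value, but the list was chosen with earlier results of these data known.

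Vitamin A circulates as retinol, enters cells through transporters such as STRA6, and is oxidised first to retinaldehyde and then to retinoic acid. Retinoic acid binds nuclear receptors (RARs, paired with RXRs) that sit on short repeated DNA elements, and cells limit the signal by reducing retinaldehyde back to retinol or by hydroxylating retinoic acid for disposal. Several of these proteins are made from genes that retinoic acid itself turns on, so that the pathway feeds back on its own supply. In the early mouse embryo the pathway is best known for its parts in visceral endoderm, in patterning of the body axis and in the exit from pluripotency.

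The bulk libraries came from an nEnd line carrying an OCT4-mCherry protein reporter, kept on mouse embryonic fibroblast feeders in RACL medium (Activin A, CHIR99021 and LIF) and stained for the surface receptor PDGFRA. Sorting gave Pdgfra+ cells (receptor without reporter), DP cells (receptor and reporter) and Oct4+ cells (reporter without receptor), with 3 libraries of each, all without a treatment. The single-cell libraries came from Oct4LOF nEnd, where adding 4-hydroxytamoxifen (4OHT) removes Oct4 (Pou5f1). Its PDGFRA-positive cells were taken by sorting and cultured without 4OHT (minus 4OHT) or with it and afterwards in medium free of it (plus 4OHT), with 1 library per condition. Both lines are cultured cells outside an embryo, the sort rests on 1 reporter and 1 antibody, and feeder cells can remain in a sort.

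Bulk totals ran from 8019631 to 11642571 reads per library, and 14185 genes passed the filter on low counts. Levels are given as CPM, the counts of a gene scaled to a library of fixed size. The sorted genes followed their labels, since Pou5f1 averaged 17.4 CPM in Pdgfra+, 229 in DP and 977 in Oct4+, and Pdgfra averaged 728, 589 and 7.40. Summed levels of 13 endoderm markers ran from 44394 to 60229 CPM in Pdgfra+, from 32169 to 45994 in DP and from 213 to 569 in Oct4+, and those of 12 epiblast markers from 190 to 292, 773 to 1232 and 4301 to 6021. Markers of other cells were present too. Of 12 fibroblast markers, which feeder cells express, Fbn1 made up most of the sum in Pdgfra+ and DP (10.6 to 139 CPM). Thy1 (12.7, 7.37 and 3.64 CPM in replicates 1 to 3) and Loxl1 (6.49, 3.34 and 3.42 CPM) were higher in every Oct4+ library than in any other, where they reached at most 1.30 and 0.354 CPM. The 12 markers did not share a direction. Twist1 was lower in every Oct4+ library (2.55 to 3.42 CPM) than in any DP library (3.65 to 5.35 CPM). Col1a2 stood at 36.8 and 5.70 CPM in Oct4+ replicates 1 and 2, above every DP and Pdgfra+ library. In Oct4+ replicate 3 it stood at 0.883 CPM, below every DP and Pdgfra+ library. Thy1 had no UMI in the fibroblast-like single cells described below, so it does not mark feeder cells in these data. Col1a1 stood at 68.0 CPM in Oct4+ replicate 1 and at 5.21 CPM or less in the other 8 libraries. Col3a1 (17.7 CPM), Postn (10.1 CPM) and Dcn (4.33 CPM) were also highest in Oct4+ replicate 1, while Fbn1, Twist1, Twist2 and Lum were highest in other libraries. Among Oct4+ libraries, replicate 2 had 569 CPM of endoderm markers against 213 and 235 CPM. In addition 8 markers of two-cell-like cells summed to between 346 and 1206 CPM in Oct4+ against at most 20.9 elsewhere. Their part in the values below was not tested. In a bulk sample, fewer cells that express a gene and less RNA per cell cannot be told apart.

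Of the 9 genes, 7 had promoters in the RefSeq table of the GRCm38.p6 build, 13 promoters in all, each spanning 300 bases around a transcription start. Retinoic acid receptors are known to bind direct repeats of a hexamer, so the promoters were searched on both strands for 2 copies of AGGTCA or GGGTCA or AGTTCA or GGTTCA in the same orientation, spaced by 5, 2 or 1 bases. The repeat with a spacer of 5 bases lay in 32 of 32851 promoters (0.0974%), and among the 13 it lay in those of Rarb and Cyp26a1. They are shown because these were the only matches in the set, for the receptor and the degrading enzyme of the pathway, printed along the gene's own strand with the half-sites in capitals.

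Rarb, chr14:16575507-16575535, minus strand: gggaagGGTTCAccgaaAGTTCActcgca

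Cyp26a1, chr19:37697770-37697798, plus strand: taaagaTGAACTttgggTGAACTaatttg

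In Rarb the repeat read along the gene, from base -53 to base -37 counted from the transcription start. In Cyp26a1 it lay on the opposite strand, from base -32 to base -16. The Rarb window overlaps an exon annotated with untranslated sequence inside the Rarb gene, and the Cyp26a1 window meets the first exon of Cyp26a1 at its last base, 37697798. None of the 51 promoters of the other retinoid pathway genes held the spacing of 5, and no promoter of the 9 genes held the spacings of 2 or 1, which occurred in 0.268% and 0.222% of all promoters. A match describes letters in these windows and nothing about binding. In the bulk libraries the levels of these 2 genes differed in pattern, as described below for each.

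Which of these genes followed OCT4 and PDGFRA across the sorted populations was asked by comparing the 3 groups pairwise. Cyp26a1 and Stra6 were high in both PDGFRA-positive populations and low in Oct4+, while Rarg, Crabp1, Crabp2 and Aldh1a2 were high in Oct4+ and low in the other populations. Rarb and Dhrs3 did not pass in any comparison. Aldh1a3 was close to 0 throughout and stayed below the filter on low counts, so that 8 of the 9 genes were tested.

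Expressed per length, which allows genes to be compared, the leading level was that of Cyp26a1 in Pdgfra+, at 212 ± 42.5 RPKM (CPM per kilobase of exon, SD, n = 3), followed by 118 ± 44.3 in DP. Rarg in Oct4+ came next among group means, at 77.7 ± 29.1 RPKM. Stra6 reached 24.2 ± 0.693 RPKM in Pdgfra+ and 17.4 ± 7.80 in DP, and Crabp1 13.1 ± 2.78 in Oct4+. Every group mean of Rarb, Aldh1a2 and Aldh1a3 was at or below 1.77 RPKM. Cyp26a1 in DP and Rarg in Oct4+ overlapped in this order, as did Stra6 in DP and Crabp1 in Oct4+.

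**Figure D1:**
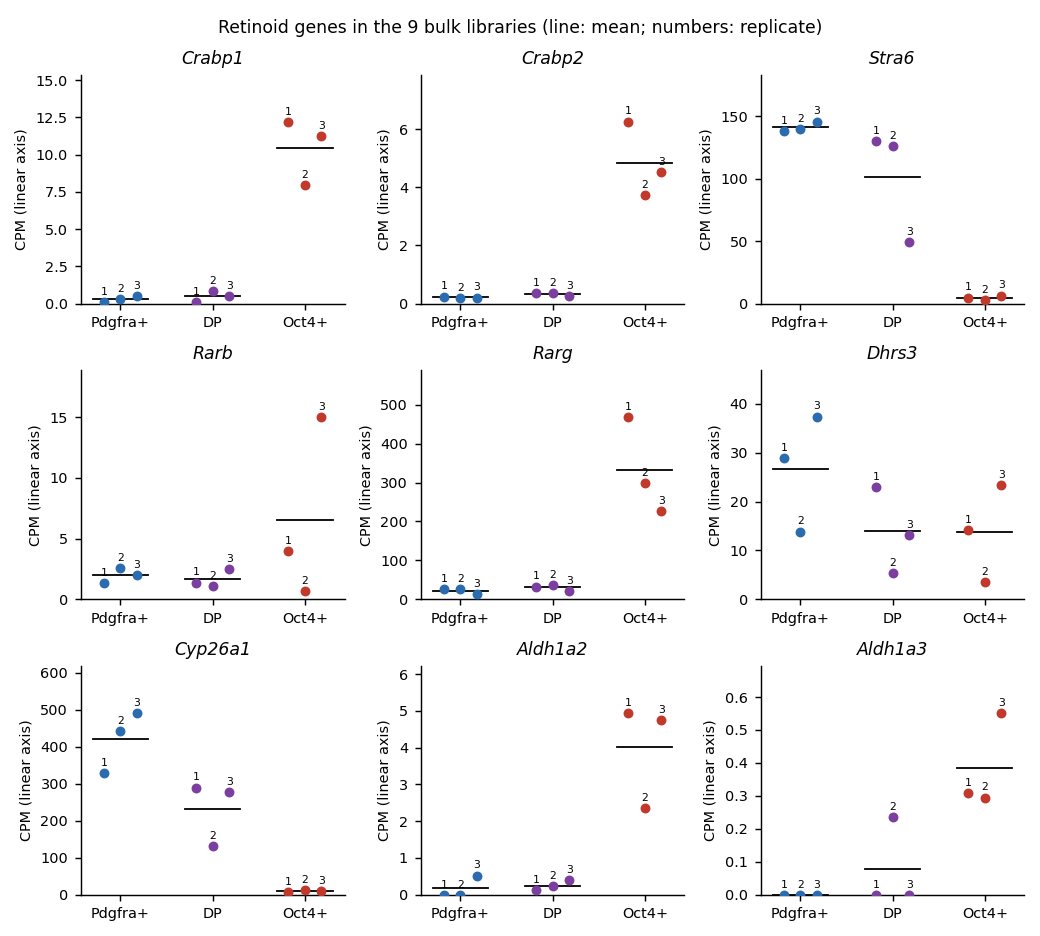
Level of each gene in the 9 bulk libraries, in CPM on linear axes that start at 0 and differ between genes, with 1 numbered point per replicate and a line at the group mean. Cyp26a1 and Stra6 stand high in Pdgfra+ and DP, and Rarg, Crabp1, Crabp2 and Aldh1a2 stand high in Oct4+, while Rarb and Dhrs3 overlap between groups.

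Stra6 (chr9:58063788-58153996, plus strand of GRCm38, as are the loci given with the other genes) encodes the cell-surface receptor that takes up retinol from its plasma carrier. Its levels were 138, 139 and 145 CPM in Pdgfra+ replicates 1 to 3, 130, 126 and 49.2 CPM in DP, and 4.79, 2.55 and 6.40 CPM in Oct4+. Every DP library lay below every Pdgfra+ library, but only DP replicate 3 lay far below, and all 6 stood above the Oct4+ libraries. On the log2 scale Stra6 was higher in DP than in Oct4+ by 4.47 ± 0.42 (SE, edgeR quasi-likelihood test, Benjamini-Hochberg adjusted p = 2.12e-05), and lower in Oct4+ than in Pdgfra+, at -4.94 ± 0.42 (edgeR adjusted p = 9.56e-06). Against Pdgfra+ the DP libraries differed by -0.47 ± 0.34, which did not pass (edgeR adjusted p = 0.421) and was -0.14 without DP replicate 3.

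Crabp1 (chr9:54764748-54773110, plus strand) and Crabp2 (chr3:87948666-87953376, plus strand) encode the cytosolic proteins that bind retinoic acid, and CRABP2 is known to hand it to nuclear receptors. Crabp1 was at 0.12, 0.30 and 0.52 CPM in Pdgfra+ replicates 1 to 3, at 0.12, 0.82 and 0.52 CPM in DP and at 12.2, 7.96 and 11.3 CPM in Oct4+. Crabp2 was at 0.24, 0.20 and 0.21 CPM in Pdgfra+, 0.37, 0.35 and 0.26 CPM in DP, and 6.26, 3.73 and 4.53 CPM in Oct4+. Both were clearly measured in Oct4+ alone, where every library stood above all PDGFRA-positive ones. Their levels in Pdgfra+ rested on 9 and 6 reads over the 3 libraries, and in DP on 12 and 8. Crabp1 was lower in DP than in Oct4+ at -4.37 ± 0.56 on the log2 scale (edgeR adjusted p = 0.000139), and Crabp2 at -3.83 ± 0.42 (edgeR adjusted p = 5.72e-05). Against Pdgfra+, Oct4+ was higher by 4.98 ± 0.59 for Crabp1 (edgeR adjusted p = 5.87e-05) and 4.41 ± 0.44 for Crabp2 (edgeR adjusted p = 2.29e-05). Between DP and Pdgfra+ neither passed, at 0.60 ± 0.69 and 0.58 ± 0.55 with edgeR adjusted p = 0.614 and 0.634, although the 3 DP values of Crabp2 all lay above the 3 Pdgfra+ values.

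Dhrs3 (chr4:144892827-144928209, plus strand) encodes an enzyme that reduces retinaldehyde back to retinol. Its levels were 28.9, 13.8 and 37.4 CPM in Pdgfra+ replicates 1 to 3, 23.0, 5.42 and 13.2 CPM in DP, and 14.2, 3.44 and 23.4 CPM in Oct4+. The groups overlapped, DP was below Pdgfra+ in each of the 3 pairs of like-numbered libraries, and replicate 2 was the lowest library of each group. That order was looked at after the values were seen and was shared by 3 of the 31 tested pathway genes named further on (Dgat1, Nrip1 and Rdh5) and by 889 of all 14185 tested genes (6.27%). No comparison passed, with log2 fold changes of -0.94 ± 0.66 in DP against Pdgfra+ (edgeR adjusted p = 0.398), 0.02 ± 0.66 in DP against Oct4+ (edgeR adjusted p = 0.983) and -0.96 ± 0.66 in Oct4+ against Pdgfra+ (edgeR adjusted p = 0.224). With the replicate number as a block on the 6 DP and Pdgfra+ libraries, which are paired by it, the first of these was -1.02 with edgeR adjusted p = 0.0416, short of the fold threshold.

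Aldh1a2 (chr9:71215789-71296243, plus strand) and Aldh1a3 (chr7:66390890-66427517, minus strand) encode retinaldehyde dehydrogenases, which make retinoic acid. Aldh1a2 was at 0, 0 and 0.52 CPM in Pdgfra+ replicates 1 to 3, at 0.12, 0.24 and 0.39 CPM in DP, and at 4.94, 2.36 and 4.75 CPM in Oct4+. The Oct4+ libraries stood apart from all others, where the gene had 5 reads over the Pdgfra+ libraries and 6 over the DP libraries. It was lower in DP than in Oct4+ at -3.95 ± 0.84 on the log2 scale (edgeR adjusted p = 0.00267) and higher in Oct4+ than in Pdgfra+ at 4.40 ± 0.86 (edgeR adjusted p = 0.00132). Its difference between DP and Pdgfra+ was 0.45 ± 1.12 (edgeR adjusted p = 0.831). All 5 Pdgfra+ reads were in replicate 3, and without that library these last 2 fitted values became 8.22 and 4.30, which depend on the prior count since no Pdgfra+ read is left. Aldh1a3 had 12 reads over the Oct4+ libraries (4, 3 and 5), 2 in DP replicate 2, and none in Pdgfra+. Against a floor of 3 reads over the Pdgfra+ group it was at least 3.46-fold higher in Oct4+, without a test in the reported fit.

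Cyp26a1 (chr19:37697798-37701536, plus strand) encodes the cytochrome P450 that hydroxylates retinoic acid, and is a well known target of retinoic acid. Its levels were 328, 443 and 492 CPM in Pdgfra+ replicates 1 to 3, 290, 132 and 278 CPM in DP, and 7.03, 12.1 and 10.7 CPM in Oct4+. The 3 groups did not overlap, with DP below Pdgfra+ and far above Oct4+. It was higher in DP than in Oct4+ by 4.56 ± 0.35 on the log2 scale (edgeR adjusted p = 7.73e-06) and lower in Oct4+ than in Pdgfra+ at -5.41 ± 0.36 (edgeR adjusted p = 3.01e-06). The lower level in DP than in Pdgfra+, -0.85 ± 0.30, did not pass (edgeR adjusted p = 0.113).

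Rarb (chr14:16430839-16819156, minus strand) and Rarg (chr15:102234938-102257517, minus strand) encode the retinoic acid receptors beta and gamma, of which Rarb is itself a known retinoic acid target. Rarg was at 25.2, 26.6 and 13.9 CPM in Pdgfra+ replicates 1 to 3, at 32.7, 37.0 and 21.7 CPM in DP, and at 469, 298 and 227 CPM in Oct4+. Oct4+ stood apart, while Pdgfra+ and DP overlapped as groups, although DP was higher in each of the 3 pairs of like-numbered libraries. Rarg was lower in DP than in Oct4+ at -3.44 ± 0.34 on the log2 scale (edgeR adjusted p = 3.05e-05) and higher in Oct4+ than in Pdgfra+ at 3.92 ± 0.35 (edgeR adjusted p = 1.24e-05), and the difference between DP and Pdgfra+ was 0.48 ± 0.33 (edgeR adjusted p = 0.383), or 0.51 with the replicate block on those 6 libraries (edgeR adjusted p = 0.0430), short of the fold threshold. Rarb was at 1.34, 2.59 and 1.98 CPM in Pdgfra+, 1.37, 1.06 and 2.48 CPM in DP, and 3.94, 0.69 and 15.01 CPM in Oct4+. Oct4+ replicate 2 was the lowest of all 9 libraries and replicate 3 the highest, so that the groups overlapped. Rarb did not pass in DP against Oct4+, at -1.99 ± 0.87 (edgeR adjusted p = 0.0729), in Oct4+ against Pdgfra+, at 1.71 ± 0.84 (edgeR adjusted p = 0.0995), or in DP against Pdgfra+, at -0.28 ± 0.89 (edgeR adjusted p = 0.870). Without Oct4+ replicate 2 it passed both comparisons with Oct4+, at -2.52 (edgeR adjusted p = 0.00777) and 2.24 (edgeR adjusted p = 0.0103), and without replicate 3 the differences shrank to -0.52 and 0.24.

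**Figure D2:**
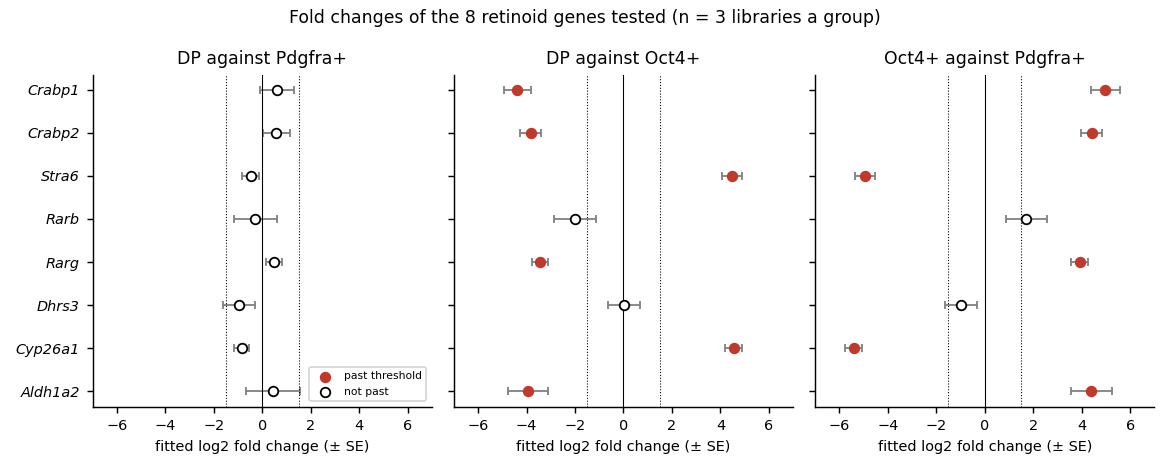
Log2 fold change with its SE for the 8 tested genes in the 3 pairwise comparisons of sorted groups, with filled points past the threshold and dotted lines at a log2 fold change of 1.5 in either direction. Between DP and Pdgfra+ no gene is past it, and the 6 genes past it in both comparisons with Oct4+ are Cyp26a1, Stra6, Rarg, Crabp1, Crabp2 and Aldh1a2.

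A gene was called when its adjusted p was below 0.05 and its log2 fold change was above 1.5 in size. Between DP and Pdgfra+ 0 of the 8 genes were called, where 3.89% of all tested genes were (3.20% higher and 0.691% lower in DP). With edgeR 0 of the 8 had an adjusted p below 0.05 there, against 6.87% of all genes. Cyp26a1 alone had an unadjusted edgeR p below 0.05 (0.0168), and DESeq2 also called 0, where it called 870 of 14173 genes. With the replicate block given above 2 of the 8, Rarg and Dhrs3, had an edgeR adjusted p below 0.05. The 6.87% does not belong to that fit, which called 713 of 12541 genes. Its share of all genes on the adjusted p alone is not given, so the 2 cannot be set against it. Groups did not overlap for 3 of the 8 (Cyp26a1, Stra6 and Crabp2), against 34.2% of all genes. In DP against Oct4+, 6 of the 8 were called, 2 higher and 4 lower in DP, against 27.7% of all genes (13.1% higher and 14.6% lower). In Oct4+ against Pdgfra+ the same 6 were called, 4 higher and 2 lower in Oct4+, against 32.0% of all genes (17.3% higher and 14.7% lower). On the adjusted p alone the count was 6 in each of these comparisons, against 56.2% and 63.2% of all genes. Non-overlapping groups were common in both comparisons, at 62.6% and 69.3% of all genes, and were seen for 6 of the 8 in each. Median log2 fold changes of the 8 genes were 0.09, -2.72 and 2.82 in the 3 comparisons, beside 0.02, -0.04 and 0.01 over all genes. The comparisons share libraries, so that these counts are not separate evidence. The genes were also chosen with earlier results of these data known, so they are not an unselected sample of all genes.

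DP libraries lay nearer to Pdgfra+ than to Oct4+ for the called genes, an order that calling them in both comparisons with Oct4+ favours. On the scale of log2 CPM, with Pdgfra+ at 0 and Oct4+ at 1, the mean position of the DP libraries was 0.0784 for Crabp1, 0.0934 for Crabp2, 0.120 for Stra6, 0.127 for Rarg, 0.133 for Aldh1a2 and 0.170 for Cyp26a1. The positions of Stra6 ran from 0.0231 in replicate 1 to 0.305 in replicate 3, and those of Cyp26a1 from 0.0962 in replicate 1 to 0.307 in replicate 2. The library farthest from Pdgfra+ was thus a different one for each of these 2 genes. Crabp1 ran from -0.129 in DP replicate 1 to 0.239 in DP replicate 2. For Crabp1, Crabp2 and Aldh1a2 both PDGFRA-positive groups had few reads, so that their positions say little about DP. Positions over all genes were not taken.

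Genes with the most similar pattern were sought for the 6 called genes by Pearson's r of log2 CPM over the 9 libraries, among 9581 genes with a mean of at least 10 CPM over the libraries. The closest were Parp1 for Crabp1 (r = 0.992), Cobl for Crabp2 (0.998), Copa for Stra6 (0.995), Rcor2 for Rarg (0.992), Rusc1 for Cyp26a1 (0.998) and Ksr1 for Aldh1a2 (0.991). Between 543 and 1920 of the 9581 genes exceeded 0.9 for a given gene, since the 9 libraries form 3 groups, so that a high r mostly restates the difference between groups.

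The wider retinoid pathway was described with a list of 48 other genes, of which 31 were tested. Between DP and Pdgfra+ 0 of the 31 were called with edgeR, where 3.89% of all genes were. With replicates of the same number as a block on the 6 libraries compared 2 were, Stra6l at 1.70 and Fabp5 at 1.62 on the log2 scale, where 713 of all 12541 genes were. In DP against Oct4+ 16 were called, 9 higher and 7 lower in DP, against 27.7% of all genes, and in Oct4+ against Pdgfra+ 17 were called, 8 higher and 9 lower in Oct4+, against 32.0% of all genes. Of the 4 other receptors, all tested, 2 were called and both were higher in Oct4+ than in each of the other groups, Rxrg and Rxra, which encode partners of the RARs. Among the tested carriers, Fabp5 was higher in Oct4+ than in Pdgfra+ at 1.65 ± 0.40 on the log2 scale (edgeR adjusted p = 0.00507), and 3 were lower (Ttr, Rbp4 and Stra6l). The 1 tested synthesis gene, Aldh1a1, was lower in Oct4+ than in Pdgfra+ at -3.40 ± 0.88 on the log2 scale (edgeR adjusted p = 0.00692), the opposite direction to Aldh1a2.

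The 3 largest differences in each direction, which the naming rule selects, were led by target and carrier genes. Higher in DP than in Oct4+ were Rarres1 at 5.22 ± 0.73, Ttr at 4.12 ± 0.92 and Bco2 at 4.04 ± 0.92 on the log2 scale, and lower were Cdx1 at -6.54 ± 1.14, Rxrg at -6.41 ± 0.80 and Stra8 at -5.27 ± 0.92. Ttr, which encodes a plasma partner of the retinol carrier, is a textbook product of visceral endoderm, and Bco2 cleaves carotenoids. Higher in Oct4+ than in Pdgfra+ were Cdx1 at 10.09 ± 1.53, Rxrg and Rdh1 at 6.20 ± 0.51, and lower were Rarres1 at -5.96 ± 0.73, Ttr at -4.45 ± 0.93 and Zfp703 at -3.83 ± 0.47. Rxrg had no read in Pdgfra+ and 149 in Oct4+, which makes it at least 43.0-fold higher against a floor of 3 reads over the group. Cdx1, a homeobox gene known to respond to retinoic acid, stood at 119, 5.60 and 153 CPM in Oct4+ replicates 1 to 3, with replicate 2 lowest as for Rarb. Replicate 2 was the lowest Oct4+ library for 6 of the 8 tested genes of the set and for 4285 of all 14185 genes. Rdh1 belongs to a cluster of near-identical genes, so its count is uncertain. Responsive genes went both ways, with 3 of the 10 tested called higher and 3 lower in Oct4+ than in Pdgfra+.

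**Figure D3:**
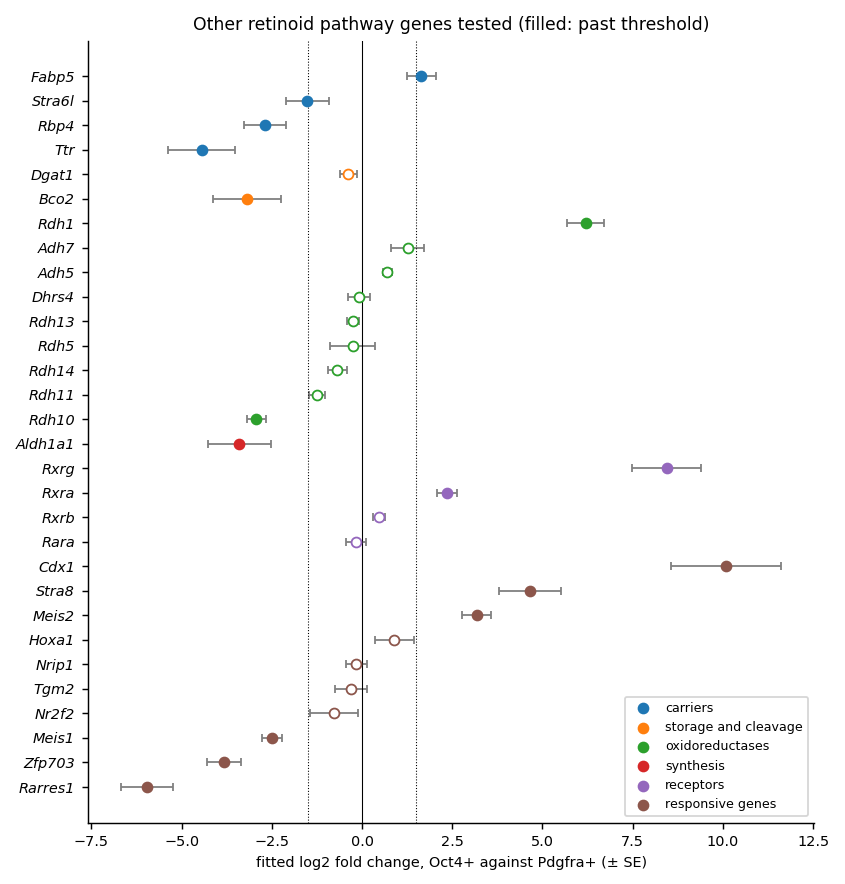
Log2 fold change in Oct4+ against Pdgfra+ of 30 tested pathway genes, grouped by role, with filled points past the threshold and bars for the SE. Of the filled points 7 lie to the right (higher in Oct4+) and 9 to the left.

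The single-cell libraries came from Oct4LOF nEnd, not from the sorted OCT4-mCherry populations, and show which of their own cells carried the transcripts. They held 6896 barcodes with a median of 15592 UMIs without 4OHT and 7283 with a median of 11825 with 4OHT, of which 5371 and 6502 were kept, and 21 barcode sequences occurred in both libraries. Clustering without the 9 genes and the pathway list gave 11 clusters. By fixed markers, 6 of them were endoderm-like (clusters 0, 1, 2, 3, 4 and 6), 2 epiblast-like (7 and 8), and 1 each fibroblast-like (5), trophectoderm-like (9) and two-cell-like (10). Endoderm-like and epiblast-like clusters were named by the greater summed level of their 2 marker sets, without a count of raised markers. In cluster 2, led by Clu and Acta2, none of the 13 endoderm markers exceeded the other cells by 2-fold, and in cluster 4 only 1 did. The epiblast-like clusters held 3791 cells, all without 4OHT. With 1 library per condition there is no replicate check and no test, and the intervals given are exact 95% intervals that cover counting error only.

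Without 4OHT, the share of cells with a UMI was set side by side in the 1379 endoderm-like cells (median 14308 UMIs) and the 3791 epiblast-like cells (median 18662 UMIs). For Cyp26a1 it was 65.9% (63.3 to 68.4) of endoderm-like and 6.52% (5.75 to 7.35) of epiblast-like cells, and with each cell thinned to 5000 UMIs 50.04% and 1.92%. For Rarg the order was opposite, 6.45% of endoderm-like and 66.6% of epiblast-like cells. Stra6 was found in 46.6% and 6.28%, Crabp1 in 1.52% and 12.6%, Crabp2 in 0.798% and 7.73%, and Aldh1a2 in 0.218% and 3.93%. Dhrs3 (8.56% and 9.87%) and Rarb (1.81% and 2.03%) had overlapping intervals. Intervals were apart for 7 of the 9 genes, and for 6 after thinning, where those of Aldh1a3 (0.145% and 1.56% unthinned) overlapped.

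Such shares are set beside those of a class of another origin, the 48 fibroblast-like cells without 4OHT (median 8334 UMIs). There the share was 8.33% for Cyp26a1, Stra6 and Dhrs3 (4 cells each), 6.25% (1.31 to 17.2) for Crabp1, 20.8% (10.5 to 35.0) for Rarg, 4.17% for Rarb, 2.08% for Aldh1a2 and 0 for Crabp2 and Aldh1a3, where 48 cells allow up to 7.40%. Cyp26a1 and Stra6 in endoderm-like cells and Rarg in epiblast-like cells stood far above the exact intervals of these shares, and Crabp2 in epiblast-like cells just above. All other shares given for the 2 classes lay within or below the unthinned intervals, so that no expression is read from these, or from that of Crabp2, alone. With Rarg in 20.8% of its 48 cells, the fibroblast-like class need not lack these genes. Its intervals are wide, so that a share inside them does not show absence either. In fibroblast-like cells the 22 Cyp26a1 UMIs lay in 4 cells, beside 1825 CPM of endoderm markers. With 4OHT, 43.1% of 58 fibroblast-like cells had a Cyp26a1 UMI. Free RNA and mixed droplets were not tested as sources.

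Within the endoderm-like class the levels differed by cluster. Cyp26a1 stood at 758 CPM (720 to 798) in cluster 4, led by Igfbp1, at 696 (686 to 707) in cluster 0, led by Cited1, at 545 (534 to 556) in cluster 1, led by Gkn2 and Gkn1, at 489 (482 to 496) in cluster 3, led by Car4, and at 373 (361 to 386) in cluster 2. In cluster 6, led by Amn and Cubn, which encode the receptor complex for endocytosis in visceral endoderm, it was at 49.7 CPM. Cluster 6 was lowest among endoderm-like clusters also for Stra6, at 34.7 CPM against 54.6 to 92.2 in the other 5, and for Dhrs3, at 2.34 CPM against 11.2 to 35.7. Its Pou5f1 level, 20.5 CPM, was above the 0.510 to 5.48 CPM of the others, and its summed epiblast markers were at 3388 CPM, against 496 to 1183 CPM there. Dhrs3 was highest in cluster 1.

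The epiblast-like clusters shared Rarg, at 71.3 CPM in cluster 7 and 68.3 in cluster 8, but differed in Crabp1, at 14.4 CPM in cluster 7, led by Calcoco2, and 4.03 in cluster 8, led by Mylpf and Tdgf1. The two-cell-like cluster, recognised by Zscan4 genes, had Rarg at 105 CPM, Crabp1 at 14.0 CPM and Aldh1a2 at 9.87 CPM. Crabp2 in the trophectoderm-like cluster stood at 60.1 CPM in 36 cells without 4OHT (23 UMIs, in 8 cells) and at 8.84 CPM in 203 cells with it, beside 4.00 and 4.97 CPM in clusters 7 and 8, which had cells without 4OHT only. In the bulk groups, the Oct4+ libraries were the ones with raised two-cell-like markers, and the part of such cells in their Rarg, Crabp1 and Aldh1a2 levels was not tested.

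**Figure D4:**
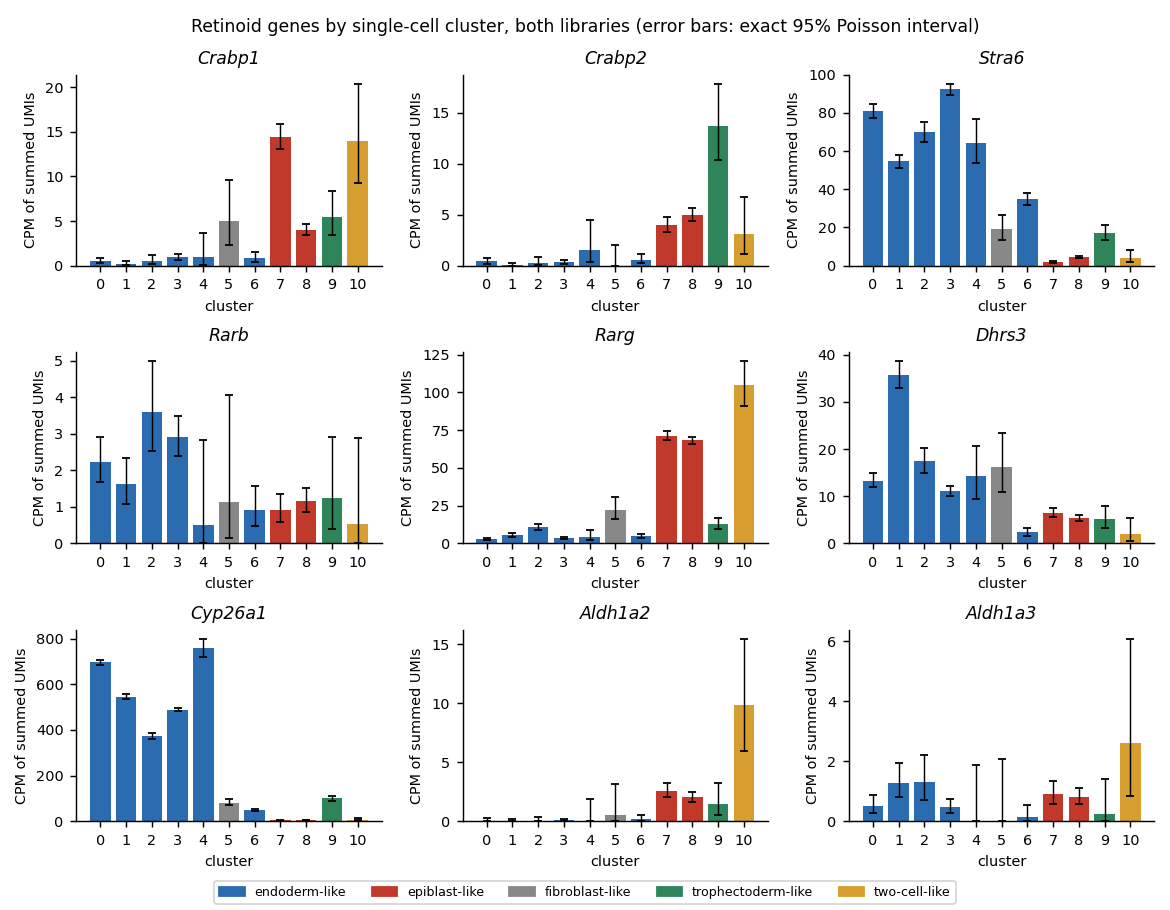
Level of each gene in the 11 single-cell clusters over both libraries, as bars in CPM from 0 coloured by class, with exact 95% Poisson intervals. Cyp26a1 and Stra6 are high in endoderm-like clusters 0 to 4 and lower in cluster 6, and Rarg is high in the epiblast-like and two-cell-like clusters.

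Whether deletion of Oct4 went with a change in these genes was asked in the endoderm-like class, 6236 cells with 4OHT and 1379 without. Pou5f1 there was at 2.03 CPM with 4OHT and 13.8 CPM without it; the sources used here do not say which part of the gene is deleted, so this level does not measure the deletion itself. All genes of the set but Aldh1a2 had enough UMIs, and 5 of them differed by more than 2-fold, where 22.0% of all genes with enough UMIs did. Cyp26a1 was at 541 CPM with and 256 CPM without 4OHT, a ratio of 2.11 (2.06 to 2.18). Dhrs3 was at 17.5 and 6.48 CPM, a ratio of 2.71 (2.27 to 3.24), and Rarb at 2.60 and 1.17 CPM, a ratio of 2.23 (1.47 to 3.52). Aldh1a3 had 67 and 2 UMIs, a ratio of 8.42 (2.24 to 70.9), and Crabp2 had 25 and 13 UMIs, a ratio of 0.483 (0.238 to 1.03). Below 2-fold were Stra6 at 78.8 and 53.5 CPM, a ratio of 1.47, and Rarg at 4.47 and 4.62 CPM, a ratio of 0.970 (0.606 without removal of doublets). With a stricter cell filter only 2 of the set were past 2-fold and the ratio of Cyp26a1 was 1.85.

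The 2 libraries filled the endoderm-like clusters differently. Clusters 4 and 6 held 170 and 723 cells without 4OHT and 3 and 1 with it, while clusters 0 to 3 held 486 cells without and 6232 with it. Within clusters 0 to 3 Cyp26a1 was at 541 CPM with and 535 CPM without 4OHT, a ratio of 1.01 (0.977 to 1.05). Cluster by cluster its ratios were 1.01, 0.839, 1.17 and 1.002. Stra6 had a ratio of 0.878 (0.805 to 0.958), Dhrs3 of 1.38 (1.10 to 1.75) and Rarb of 1.36 (0.766 to 2.68). In clusters 0, 1, 2 and 3 the ratios of Stra6 were 0.999, 1.21, 1.44 and 0.892, and those of Dhrs3 1.32, 0.784, 0.943 and 1.08. Neither gene kept a direction across clusters. The pooled ratios also depend on how each library filled the clusters, since cluster 1 held 1655 cells with and 34 without 4OHT. Over clusters 0 to 3 all genes of the set but Aldh1a2 again had enough UMIs, and only 2 were past 2-fold, against 10.2% of all genes with enough UMIs. They were Crabp1 at a ratio of 0.470 (0.222 to 1.15) on 51 and 8 UMIs, and Aldh1a3 with 67 UMIs against none, at least 1.65-fold over a floor of 3 UMIs. The difference in Cyp26a1 over the whole class was thus not seen within the clusters that both libraries held, where the counting interval of its ratio ended at 1.05. Of the 228 endoderm-like cells without 4OHT that held a Pou5f1 UMI, 203 were in cluster 6, which this comparison leaves out. Few such cells remained in clusters 0 to 3, so that the comparison says little about loss of Oct4 itself.

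**Figure D5:**
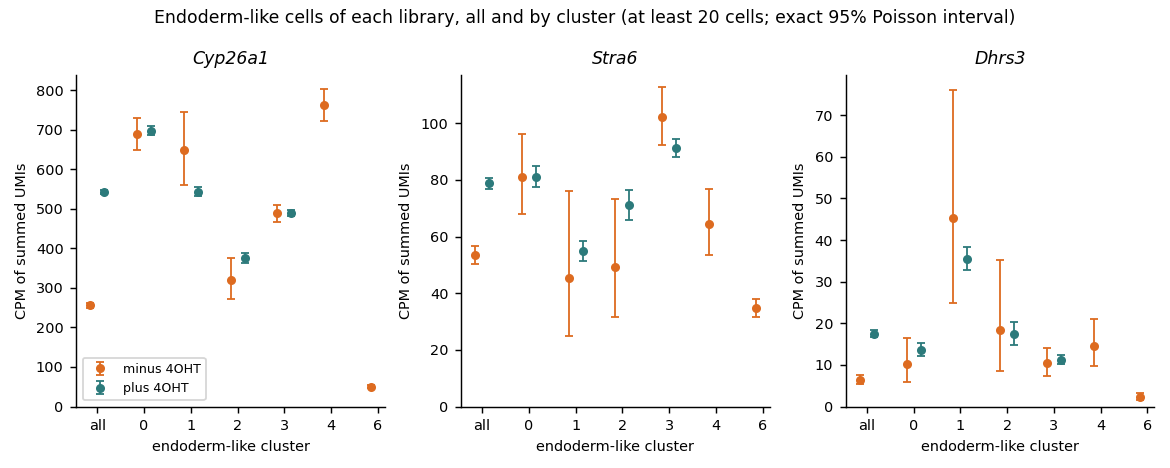
Cyp26a1, Stra6 and Dhrs3 in endoderm-like cells with and without 4OHT, over the whole class and by cluster where a library had at least 20 cells, in CPM with exact 95% Poisson intervals. For Cyp26a1 the whole class stands at 541 CPM with and 256 CPM without 4OHT, cluster 0 at 697 and 688, and cluster 3 at 489 and 488.

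Of 34 listed pathway genes with enough UMIs, 12 were above 2-fold higher and 3 lower with 4OHT over the endoderm-like class, where 22.0% of all genes were past 2-fold. Within clusters 0 to 3 it was 2 higher (Bco1 and Dhrs9) and 1 lower (Stra8) of 33, near the 10.2% of all genes there.

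Endoderm-like cells without 4OHT could also be described by whether they held a Pou5f1 UMI, 228 with (median 18899 UMIs) and 1151 without (median 13454). Cyp26a1 was at 67.3 CPM in cells with and 308 CPM in cells without a Pou5f1 UMI, a ratio of 0.218 (0.194 to 0.245), and after thinning at 81.6 and 344 CPM, a ratio of 0.237. Dhrs3 was at 2.81 and 7.49 CPM, a ratio of 0.375 (0.194 to 0.666), while Stra6 had a ratio of 0.708 (0.602 to 0.829) and Rarg of 1.51 (0.943 to 2.36), which became 2.82 where doublets were not removed. Including Rarb, at 3 and 22 UMIs with a ratio of 0.496 (0.0951 to 1.65), 3 genes were past 2-fold, against 8.16% of all genes with enough UMIs. Of the set only Stra6, Rarb, Rarg, Dhrs3 and Cyp26a1 had enough. After thinning Rarb had 0 and 7 UMIs and was no longer counted. Of the 228 cells, 203 were in cluster 6, so that the split largely sets that cluster against the others. Within cluster 6 Cyp26a1 was at 30.9 CPM in cells with and 58.2 CPM in cells without a Pou5f1 UMI, a ratio of 0.530 (0.434 to 0.643). Stra6 had a ratio of 0.950 (0.773 to 1.16) there, and Dhrs3 one of 0.885 (0.359 to 2.00) on 9 and 22 UMIs.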

How the data were processed

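Bulk RNA-seq covered 9 libraries (Pdgfra+, DP and Oct4+, 3 biological replicates each per the methods). From stranded single-end libraries, the authors deposited unnormalised read counts by gene, and no source used here names the aligner, counter or annotation. They ran DESeq2 on them. For single cells the deposited values are unnormalised UMI counts from Cell Ranger 6.1.2, with mm10 among the builds in the submitters' processing notes. Totals were 107645982 UMIs without and 95420040 with 4OHT. At the end of the bulk counts 35 blank lines without a gene held no counts.

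Bulk counts were fitted in edgeR 4.0.16 (R 4.3.3) with TMM scaling, filterByExpr and group as the only term over all 9 libraries, tested by glmQLFTest with Benjamini-Hochberg adjustment over 14185 genes, and called at adjusted p below 0.05 with a log2 fold change above 1.5 in size. P-values measure the spread between these libraries. RPKM used exon lengths of a GENCODE annotation of GRCm38. Replicate numbers paired DP and Pdgfra+ libraries, since deviations from group means of same-numbered libraries correlated at 0.271 to 0.477, but not DP and Oct4+ (-0.0728 to 0.152) or Oct4+ and Pdgfra+ (-0.0465 to 0.0383).

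Cells needed 1000 genes and at most 15% mitochondrial counts. Scrublet called 241 doublets without 4OHT, but its automatic threshold called 0 with 4OHT, so the first library's threshold of 0.268 was used for both (241 and 163 barcodes). Scanpy 1.11.5 gave 2000 variable genes without the retinoid lists, 20 components, 20 neighbours and Leiden clusters at resolution 0.5. Classes were named from fixed markers, but the number needed (4 two-cell-like, 6 fibroblast-like or 5 trophectoderm-like markers above 2-fold, otherwise the greater summed level of endoderm or epiblast markers) was set after the clusters were seen. Levels are the CPM of UMIs summed over a class. A 2-fold difference was counted with at least 20 UMIs on 1 side.

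The 9 genes, the pathway list, the markers and the naming rule (all 9 genes, up to 3 called pathway genes per direction and the most similar genes) were chosen with earlier results of these data known. Further pathway genes are named as examples of their role, chosen after their values were seen. One gene of the pathway list enters its counts but is not reported here by itself. Scripts were tested on simulated data. Sequences came from RefSeq (GRCm38.p6).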

Additional observations from a re-analysis of the deposited data

How the results depend on the processing

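The counts of the 9 genes past the threshold, 0, 6 and 6 in the 3 bulk comparisons, were the same under RLE scaling, the replicate block and fits to 6 libraries. They were 0, 7 and 6 with DESeq2, 0, 7 and 8 without a filter, 0, 5 and 5 with the stricter filter, which removed Aldh1a2, and 0, 6 to 7 and 6 to 7 without 1 library each. Over all genes the counts were 870, 3930 and 4513 of 14173 with DESeq2, and 1023, 5309 and 6410 of 28233 without a filter. With the stricter filter they were 480, 2954 and 3393 of 12082. Without 1 library each they ran from 57 to 728, from 3920 to 4369 and from 4579 to 4949, of 14498 to 14866 genes. The gene added was Rarb, in DP against Oct4+ with DESeq2 (-2.06) and without a filter (-1.94), in Oct4+ against Pdgfra+ without a filter (1.67), and in both without Oct4+ replicate 2. Without a filter Aldh1a3 was tested as well, and it was also called in Oct4+ against Pdgfra+. Of 300 recomputed log2 fold changes these 5 of Rarb changed a call. Another 8 changed sign, all of differences that passed in no fit (Dhrs3 in DP against Oct4+, Crabp1 and Aldh1a2 in DP against Pdgfra+). The pathway count in DP against Pdgfra+, 0, became 1 with RLE, DESeq2, no filter or the stricter filter, 2 with the replicate block on the 6 libraries, and 0 to 2 without 1 library each (2 without DP replicate 1, Stra6l and Nr2f2; 1 without Pdgfra+ replicate 1, Fabp5); the cause was not tested. The block changed no other call, but gave Rarg and Dhrs3 an adjusted p below 0.05 between DP and Pdgfra+, and Dhrs3 one between Oct4+ and Pdgfra+, which share numbers without being paired.

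The count past 2-fold between single-cell libraries, 5, was 2 within clusters held by both libraries (an alternative chosen after seeing the data, as was keeping weak graph edges, which gave 5) and 2 with a stricter cell filter, 5 at resolutions 0.2 and 1.0, and 6 without doublet removal; the cause was not tested. For the split by Pou5f1 UMI, 3, it ran from 2 to 4. Depth limits Crabp1, Crabp2, Aldh1a2, Aldh1a3 and Rarb, which had few reads or UMIs in endoderm cells.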
